A study of Mus musculus with 25 samples.

Results

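Whole choroid plexus from 5XFAD mice given anti-PD-1 was compared with whole choroid plexus from 5XFAD mice given a control IgG, gene by gene. The comparison takes 10 of the 25 samples of the series, 5 anti-PD-1 and 5 IgG, chosen by the treatment named in their labels. A further 4 choroid plexus samples from untreated 5XFAD mice entered the same fit, and their levels are given where they help to read the others. The 11 remaining samples were sorted myeloid cells and were not used here. All groups carry the 5XFAD transgenes, which express mutant human amyloid precursor protein and presenilin from a neuronal promoter, so no group here is free of amyloid pathology. The antibody dose, the interval between injection and dissection and the age of the mice are not given in the labels. Each titled sample was described as 1 mouse in the study design.

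The choroid plexus is a folded epithelium around a leaky, fenestrated capillary bed in each brain ventricle. Its epithelial cells secrete cerebrospinal fluid, and its stroma holds fibroblasts, pericytes, endothelium and resident macrophages. PD-1 is an inhibitory receptor of activated T cells, and blocking it is known to raise their release of interferon-gamma. Interferon-gamma binds a receptor made of Ifngr1 and Ifngr2, and its signal induces immunity-related GTPases, guanylate-binding proteins and the antigen presentation machinery.

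The libraries held 1083796 to 1673440 counts in the anti-PD-1 group and 931461 to 1840072 in the IgG group (exact permutation test of the means, two-sided, p = 0.841, n = 5 each). Levels are CPM, counts scaled to a common library total with TMM factors, and a gene with 0 counts could still be present at up to 1.63 to 3.22 CPM, the value of 3 counts, counting error only. Markers of the labelled tissue were abundant. Ttr, the transcript of transthyretin, a carrier of thyroid hormone, took 10.6% to 13.1% of the counts in anti-PD-1 libraries and 10.3% to 12.9% in IgG libraries (exact permutation test, two-sided, p = 0.556, n = 5 each). The titles carry a letter, M or F, which served as a covariate. Both groups hold 2 M and 3 F libraries, and in both groups every M title ends in a higher number than every F title, so effects of the letter and of that number cannot be separated. The first principal component, with 17.4% of the variance, separated M from F libraries.

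One library stood apart. Anti-PD-1 replicate 5, an F library, lay at 28.1 on the second component, where the other 9 libraries lay between -18.5 and 12.8. It held 4 transcripts at 20 CPM or more that had at most 1 count in any other choroid plexus library: BC048546 at 135 CPM, the whey acidic protein domain genes Wfdc12 at 134 CPM and Wfdc18 at 28.6 CPM, and the mucin gene Muc19 at 56.4 CPM. No other library held such a transcript. Estimates larger than their SE that moved by over 1.5 times without it are given both ways, where the gene was still tested.

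Of 9513 tested genes, 0 passed an adjusted p of 0.05 (0% of the tested genes; edgeR's quasi-likelihood test with Benjamini-Hochberg adjustment), and the smallest adjusted p was 0.144. At an unadjusted p under 0.05 there were 442 genes, or 4.65% of those tested, of which 193 (2.03%) were higher and 249 (2.62%) lower in anti-PD-1 libraries. DESeq2 called 1 gene. All 5 anti-PD-1 libraries lay above all 5 IgG libraries in 24 genes (0.252%) and below them in 37 genes (0.389%). The 10 libraries can be split 5 against 5 in 252 ways. Unrelated labels would thus give each order in about 1 gene of 252, and neither share exceeded that. Standard errors on the log2 scale had a median of 0.19, and for 90.65% of the tested genes the 95% interval lay within 1 log2 unit of 0. The median log2 fold change was 0.00. The genes below are therefore ranked by evidence and described by their values, and none of them is called as changed. Where untreated values are given, the difference from them was not tested.

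**Figure D1:**
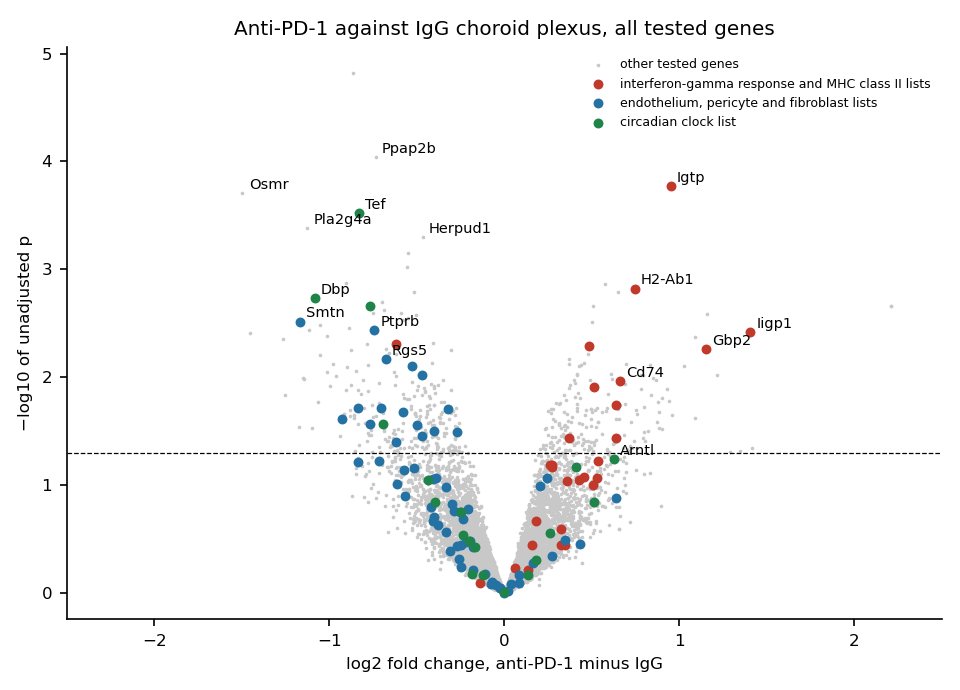
Each point is 1 of the 9513 tested genes, with its log2 fold change (anti-PD-1 minus IgG) on the horizontal axis and −log10 of its unadjusted p on the vertical axis; coloured points are members of the named lists and the dashed line marks an unadjusted p of 0.05. Interferon-gamma response and MHC class II members lie mostly right of 0, stromal and vascular members mostly left of it, and no gene passed after adjustment.

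The transcripts of the interferon-gamma response list leaned towards higher levels in anti-PD-1 libraries. Of its 36 genes 22 were tested, 20 had positive estimates, with a median of 0.34 on the log2 scale, against 0.00 over all tested genes. At an unadjusted p under 0.05 there were 7 higher (2.03% of all tested genes were) and 1 lower (2.62%). The median was 0.24 without anti-PD-1 replicate 5, 0.55 in F libraries alone and 0.12 in M libraries alone. The mean log2 CPM of the list ran from 5.09 to 5.84 in anti-PD-1 libraries and from 5.02 to 5.13 in IgG libraries, and anti-PD-1 replicates 4 and 5 were the highest. Untreated libraries ran from 4.91 to 5.43, and the highest of them lay above every anti-PD-1 library but replicates 4 and 5.

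The promoters of 3 members with positive estimates are shown because they hold the letters of the interferon-stimulated response element, the sequence that interferon-activated transcription factors bind. They come from RefSeq on build GRCm38.p6, from the 250 bases before the annotated start, 5′ to 3′ on the gene's strand, with matches to the core of the element, GAAA followed by any 2 bases and GAAA again, on either strand in capitals (overlapping matches run together).
Igtp, chr11:58199482-58199555, plus strand: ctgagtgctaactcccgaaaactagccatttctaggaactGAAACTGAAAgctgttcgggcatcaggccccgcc
Gbp2, chr3:142620564-142620653, plus strand: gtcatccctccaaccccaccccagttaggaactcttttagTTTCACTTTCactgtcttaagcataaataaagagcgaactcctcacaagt
Irgm1, chr11:48871421-48871490, minus strand: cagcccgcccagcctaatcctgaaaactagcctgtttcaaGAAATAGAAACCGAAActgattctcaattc
Of the 22 tested members 17 had a promoter in the table, and 10 of them (58.8%) held that core, against 3.46% of all 27025 genes. A gene counted if any of its annotated promoters matched. The gamma-activated site TTCNNNGAA, a palindromic element of interferon-gamma target promoters, was in 9 of the 17 (52.9%) and in 8.13% of all genes. These matches describe the letters of the windows only.

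Igtp, an immunity-related GTPase that acts on the vacuoles of intracellular pathogens, had the lowest p among genes with a positive estimate. It was at 38.4, 30.6, 35.6, 60.8 and 69.1 CPM in anti-PD-1 libraries 1 to 5, against 27.4, 12.1, 32.4, 29.5 and 21.2 CPM in IgG libraries. The groups overlapped in 1 anti-PD-1 library, and 4 of 5 lay above every IgG library. Its log2 fold change was 0.95 ± 0.22 (SE; edgeR's quasi-likelihood test, adjusted p = 0.464), and 0.82 without anti-PD-1 replicate 5. The estimate was 1.01 in F and 0.82 in M libraries. Untreated libraries held 18.5 to 32.6 CPM of Igtp. Iigp1, a GTPase of the same family, was at 10.3, 5.24, 7.57, 18.9 and 13.5 CPM in anti-PD-1 libraries, against 3.16, 3.73, 8.28, 3.27 and 2.79 CPM in IgG libraries, of which IgG replicate 3 overlapped the anti-PD-1 range. Its log2 fold change was 1.41 ± 0.44 and its 95% interval ran from 0.50 to 2.31. Untreated libraries held 12.1, 1.61, 8.15 and 2.68 CPM of Iigp1, a spread as wide as both treated groups together save the 2 highest anti-PD-1 libraries.

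Of the guanylate-binding proteins, large GTPases that coat intracellular microbes, Gbp2, Gbp3 and Gbp7 were high in 2 anti-PD-1 libraries and near the IgG level in the other 3. Gbp4, Gbp5, Gbp6, Gbp9 and Gbp10 were too low to be tested, at 9 to 103 counts over the 14 libraries. Gbp2 was at 5.62, 6.99, 8.32, 25.4 and 31.0 CPM in anti-PD-1 libraries, against 8.43, 3.73, 7.53, 8.19 and 6.71 CPM in IgG libraries. Its log2 fold change was 1.15 ± 0.38, and 0.85 without anti-PD-1 replicate 5. Gbp3 showed the same 2 libraries, at 33.0 and 32.6 CPM, with the other 3 at 10.5 to 12.9 CPM and the IgG libraries at 9.48 to 15.6 CPM. Gbp7 was at 52.5 and 56.4 CPM in those 2 libraries, at 20.4 to 25.3 CPM in the other anti-PD-1 libraries and at 14.7 to 33.0 CPM in IgG libraries.

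Other GTPases had smaller estimates. Tgtp2 had 0.48 ± 0.16 and Tgtp1 0.51 ± 0.19, and 0.30 and 0.27 without anti-PD-1 replicate 5, but these 2 are near-identical copies. Over the 14 libraries Tgtp2 had 2107 counts, but 1037 reads in the scaled signal. The 2107 counts equal those 1037 reads plus the 1070 counts of Tgtp1. The 2 estimates thus share reads and are not separate, though both stand among the 20 positive and 7 higher members of the list. Irgm1, a regulator of the same GTPases, was at 53.4, 54.2, 40.1, 63.7 and 43.7 CPM in anti-PD-1 libraries and at 44.2, 39.2, 38.4, 40.9 and 36.3 CPM in IgG libraries. Its estimate was 0.37 in both F and M libraries. Irgm2 had 0.51 ± 0.30.

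Other members of the list had estimates of either sign. Irf1, an interferon-induced transcription factor, had 0.14 ± 0.27. The immunoproteasome subunit Psmb8 had 0.35 ± 0.37, and -0.26 without anti-PD-1 replicate 5, where it was at 40.5 CPM against at most 14.2 CPM in the other anti-PD-1 libraries. Serping1, the C1 inhibitor, was the 1 member of the list with a lower level at an unadjusted p under 0.05. It was at 24.4, 68.2, 87.0, 55.5 and 76.3 CPM in anti-PD-1 libraries and at 121, 106, 86.6, 73.7 and 92.8 CPM in IgG libraries (-0.62 ± 0.20; -0.40 without anti-PD-1 replicate 1).

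**Figure D2:**
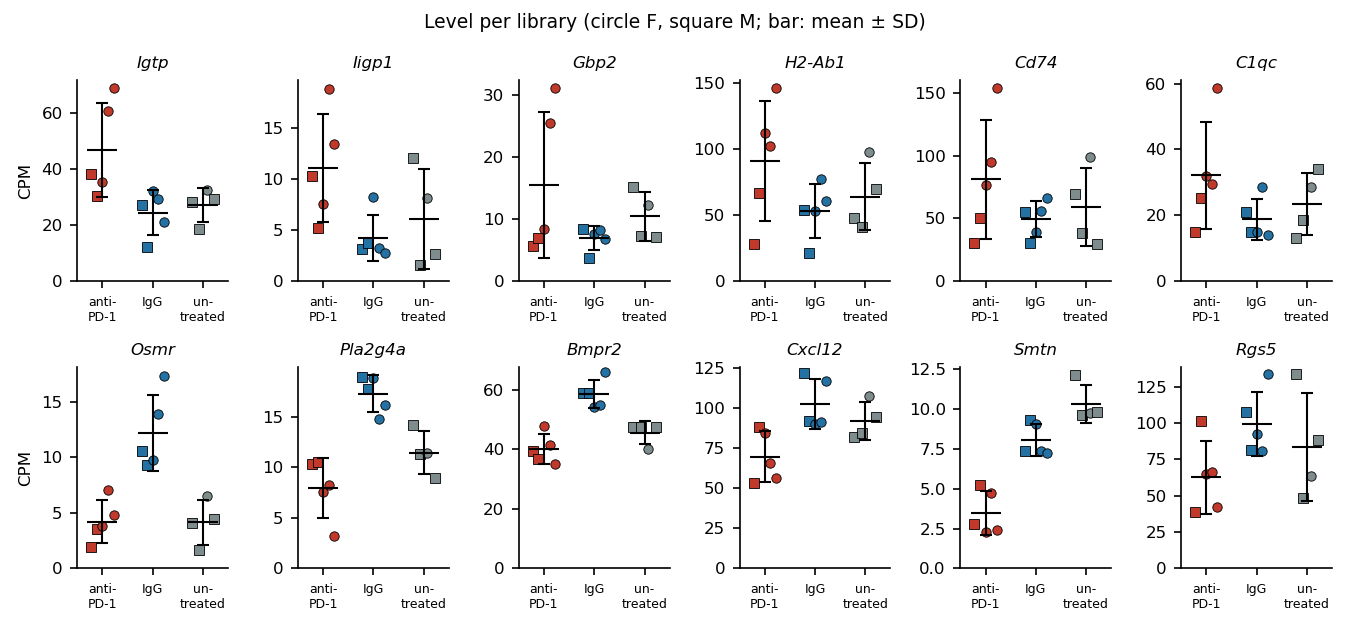
Level in CPM of 12 genes in each anti-PD-1, IgG and untreated library, as circles for F and squares for M libraries, with the mean ± SD as bars. In the upper row anti-PD-1 replicates 4 and 5 reach the highest Gbp2 levels, 25.4 and 31.0 CPM; in the lower row all 5 anti-PD-1 libraries lie below all 5 IgG libraries for Osmr, Pla2g4a, Bmpr2, Cxcl12 and Smtn.

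The type I interferon list did not lean the same way. Of its 15 tested genes 6 had a positive estimate and the median was -0.04. At an unadjusted p under 0.05, 3 were higher (2.03% of all tested genes were) and 1 lower (2.62%). Bst2, the membrane tether tetherin, was at 76.9, 71.7, 137, 142 and 413 CPM in anti-PD-1 libraries and at 60.0, 41.0, 169, 139 and 66.5 CPM in IgG libraries. The estimated log2 fold change was 0.79 ± 0.28, and 0.30 without anti-PD-1 replicate 5. Ifi27l2a had 0.90 ± 0.35, and 0.48 without that library, whereas Ifitm3, a restriction factor of viral entry, had -0.67 ± 0.31. Isg15, Mx1, Rsad2 and Irf7 were too low to be tested.

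The ligand itself was at or near 0. Ifng had 1 count in 1 anti-PD-1 library and 0 counts in all IgG libraries, and Pdcd1, which encodes PD-1, was at 0 to 0.937 CPM in anti-PD-1 libraries and 0 to 1.05 CPM in IgG libraries. Cd3e, a defining T cell marker, had 0 counts in all 10 libraries. The 4 T cell markers together reached at most 2.38 CPM in anti-PD-1 libraries and 1.64 CPM in IgG libraries, no more than the value of 3 counts in the shallower libraries. Foxp3, the transcription factor of regulatory T cells, was the 1 tested gene of the T, NK and B cell list. It was at 13.1, 12.2, 19.7, 14.7 and 8.74 CPM in anti-PD-1 libraries and at 15.8, 19.6, 15.1, 20.5 and 9.50 CPM in IgG libraries (-0.19 ± 0.26). Foxp3 overlaps Ccdc22 and Flicr in the annotation, and without a stated strand setting their reads cannot be told apart. Cd274, the PD-1 ligand PD-L1, was at 3.03 to 7.08 CPM in anti-PD-1 libraries and 0 to 4.47 CPM in IgG libraries and was not tested. Cxcl10, an interferon-induced chemokine, was at 0.757 to 7.95 CPM in anti-PD-1 libraries and 0 to 4.91 CPM in IgG libraries and was not tested either.

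The receptor subunits had negative estimates. Ifngr1 was at 23.4, 22.7, 24.2, 24.8 and 30.2 CPM in anti-PD-1 libraries and at 41.1, 21.4, 26.4, 35.2 and 34.6 CPM in IgG libraries (-0.34 ± 0.19). Ifngr2 had -0.27 ± 0.27. Over the list of interferon-gamma receptor and PD-1 axis genes, 4 of 9 tested members had a positive estimate, with a median of -0.04.

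MHC class II genes, which present peptides to CD4 T cells, leaned towards higher levels in anti-PD-1 libraries. Of 7 tested members 6 had a positive estimate, with a median of 0.53, and 3 were higher at an unadjusted p under 0.05 (2.03% of all tested genes were). The median was 0.33 without anti-PD-1 replicate 5, 0.91 in F libraries and -0.06 in M libraries; the difference between the letters was not tested. H2-Ab1, a class II beta chain, was at 28.1, 66.4, 112, 102 and 146 CPM in anti-PD-1 libraries and at 53.7, 21.4, 53.5, 77.8 and 60.3 CPM in IgG libraries. All 3 F anti-PD-1 libraries lay above every IgG library, and anti-PD-1 replicate 1 lay near the bottom. The log2 difference was 0.74 ± 0.21, and 0.61 without anti-PD-1 replicate 5. Untreated libraries held 41.0 to 97.8 CPM of H2-Ab1.

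Cd74, the class II invariant chain, was at 30.0, 50.7, 76.4, 95 and 154 CPM in anti-PD-1 libraries and at 54.8, 30.8, 39.2, 55.7 and 66.5 CPM in IgG libraries (0.66 ± 0.24; 0.41 without anti-PD-1 replicate 5). H2-Eb1, another class II chain, had 0.64 ± 0.25, and 0.35 without that library. In untreated libraries Cd74 was at 29.45 to 98.6 CPM and H2-Eb1 at 41.8 to 116.5 CPM. The highest untreated value of each lay above every anti-PD-1 library but replicate 5. H2-Aa, an alpha chain, had 0.45 ± 0.25, and 0.75 without IgG replicate 1. H2-DMa, which helps to load peptides onto class II, had 0.53 ± 0.30, and 0.21 without anti-PD-1 replicate 5. Its partner H2-DMb1 was erratic, at 0.937 to 71.1 CPM in anti-PD-1 libraries and 10.6 to 38.0 CPM in IgG libraries. In whole tissue, more class II positive cells and more class II RNA per cell cannot be told apart.

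Transcripts of the general macrophage list leaned the same way as the class II genes. The border macrophage list, of which 5 genes were tested, had 3 positive estimates and a median of 0.0077, and the microglia list also had 3 of 5 positive, with a median of 0.06, and -0.19 without anti-PD-1 replicate 5. Its member Olfml3, at -0.75, was the 1 microglia list gene with an unadjusted p under 0.05 (4.65% of all tested genes had that). Of 11 tested general macrophage markers 10 had a positive estimate, with a median of 0.35; it was 0.13 without anti-PD-1 replicate 5, 0.72 in F libraries and -0.22 in M libraries. The list's mean log2 CPM ran from 3.37 to 5.28 in anti-PD-1 libraries and from 3.43 to 4.44 in IgG libraries. The part of macrophage content in the class II and interferon-gamma values was not tested. C1qc, a complement C1q chain made by macrophages, was at 15, 25.3, 31.8, 29.5 and 58.8 CPM in anti-PD-1 libraries and at 21.1, 14.9, 15.1, 28.6 and 14 CPM in IgG libraries. Its estimate was 0.78 ± 0.28, and 0.50 without anti-PD-1 replicate 5, with 1.07 in F and 0.18 in M libraries, while over the complement list 7 of 11 tested members were positive, with a median of 0.04. C1qa and C1qb, the partner chains of C1qc, had 0.18 ± 0.32 and 0.31 ± 0.27, and -0.37 and -0.07 without anti-PD-1 replicate 5. Emr1, the macrophage antigen F4/80, had 0.93 ± 0.35, and 0.68 without that library. Csf1r, the receptor for the growth factor CSF1, had 0.48 ± 0.26, Lyz2, a lysozyme, 0.35 ± 0.25 (0.08 without it), and Ptprc, which encodes CD45 of all leukocytes, 0.15 ± 0.44.

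MHC class I genes showed little. The median over 13 tested members was 0.07. H2-K1, a classical class I heavy chain, was the 1 member with an unadjusted p under 0.05 (4.65% of all tested genes had that). It was at 344, 286, 210, 319 and 470 CPM in anti-PD-1 libraries and at 248, 256, 247, 242 and 262 CPM in IgG libraries (0.37 ± 0.14; 0.20 without anti-PD-1 replicate 5). B2m, the class I light chain, had 0.27 ± 0.14, and 0.09 without that library.

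**Figure D3:**
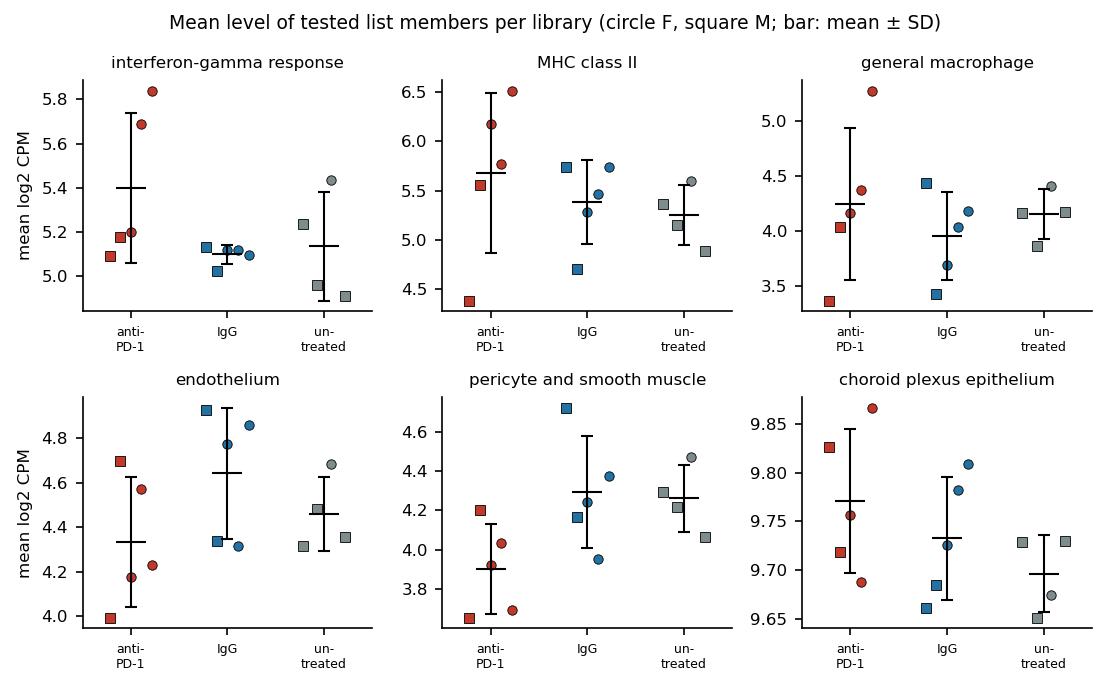
Mean log2 CPM of the tested members of 6 gene lists in each library, as circles for F and squares for M libraries, with the mean ± SD as bars. Anti-PD-1 libraries spread further than IgG libraries for the interferon-gamma response list (5.09 to 5.84, against 5.02 to 5.13) and for the macrophage list.

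Adhesion and trafficking genes did not shift together. Of 12 tested members 3 had a positive estimate, with a median of -0.02. Icam1, the endothelial and epithelial ligand that leukocytes bind, was at 20.6, 27.1, 25.7, 30.1 and 27.0 CPM in anti-PD-1 libraries and at 28.4, 25.2, 19.6, 26.2 and 33.5 CPM in IgG libraries (-0.02 ± 0.19). Only 5 chemokine list genes were tested. Cx3cl1, the membrane-bound chemokine fractalkine, had 0.42 ± 0.17. Cxcl12, a chemokine of stromal cells, was at 53.4, 88.3, 84.8, 66.1 and 56.4 CPM in anti-PD-1 libraries and at 122, 92.3, 90.4, 91.7 and 117 CPM in IgG libraries. All anti-PD-1 libraries lay below all IgG libraries, at -0.56 ± 0.15 (adjusted p = 0.996), and untreated libraries were at 81.9 to 108 CPM.

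Osmr, the oncostatin M receptor, was at 1.88, 3.50, 3.78, 7.08 and 4.77 CPM in anti-PD-1 libraries, against 10.5, 9.32, 9.79, 13.9 and 17.3 CPM in IgG libraries. The groups did not overlap, at -1.50 ± 0.35 (adjusted p = 0.464), and the untreated libraries were at 1.61 to 6.52 CPM, as low as the anti-PD-1 libraries. Il6st, the gp130 chain that Osmr pairs with, had -0.48 ± 0.20, and Lifr, another gp130 partner, -0.54 ± 0.31. Of the 12 tested genes of the oncostatin M and gp130 list 5 had positive estimates, with a median of -0.06, and Stat3 and Socs3, downstream of gp130, had -0.08 and -0.04.

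Pla2g4a, the cytosolic phospholipase that releases arachidonic acid, was at 10.3, 10.5, 7.57, 8.26 and 3.18 CPM in anti-PD-1 libraries, against 19.0, 17.7, 18.8, 14.7 and 16.2 CPM in IgG libraries. The log2 difference was -1.12 ± 0.28 (adjusted p = 0.657), and the untreated libraries at 8.92 to 14.2 CPM overlapped the anti-PD-1 range and lay below every IgG library. Of the 15 tested eicosanoid and phospholipase genes 3 had a positive estimate, with a median of -0.11. Ppap2b, a phosphatase of lysophosphatidic acid and sphingosine 1-phosphate, was at 106, 209, 165, 188 and 151 CPM in anti-PD-1 libraries and at 336, 235, 245, 196 and 352 CPM in IgG libraries (-0.73 ± 0.16, adjusted p = 0.431). Only IgG replicate 4 overlapped the anti-PD-1 range.

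Bmpr2, a receptor for bone morphogenetic proteins, was at 39.4, 36.7, 47.7, 41.3 and 35.0 CPM in anti-PD-1 libraries, against 59.0, 58.7, 54.2, 54.8 and 65.9 CPM in IgG libraries. It did not overlap (-0.55 ± 0.14), with untreated libraries at 39.9 to 47.5 CPM. Trip6, an adaptor of focal adhesions, Slc25a25, a mitochondrial nucleotide carrier, and Jun, a subunit of the AP-1 factor, did not overlap either, at -0.70 ± 0.20, -0.69 ± 0.20 and -0.62 ± 0.23. Herpud1, a component of protein degradation at the endoplasmic reticulum, had -0.47 ± 0.12. Over the heat shock and unfolded protein list 9 of 26 tested members had a positive estimate, with a median of -0.10. At an unadjusted p under 0.05, 1 of the 26 was lower (2.62% of all tested genes were). Lpl, lipoprotein lipase, had -0.89 ± 0.28, and Apoe, the main apolipoprotein of the brain, -0.35 ± 0.13.

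Stromal and vascular transcripts leaned towards lower levels in anti-PD-1 libraries. The pericyte and smooth muscle list had 12 of 14 tested members with a negative estimate and a median of -0.53, and 6 were lower at an unadjusted p under 0.05. The endothelium list had 23 of 26 negative, a median of -0.29 and 3 lower, and the fibroblast and matrix glycoprotein list 15 of 21 negative, a median of -0.23 and 7 lower. Over all tested genes 2.62% were lower at that p. The pericyte median was -0.46 in F and -0.43 in M libraries, the endothelium median -0.42 in F and -0.21 in M libraries, and the fibroblast median -0.11 in F and -0.45 in M libraries. Without IgG replicate 1 they were nearest to 0 for pericytes, at -0.39, and endothelium, at -0.22. The summed CPM of 5 fibroblast markers ran from 263 to 388 in anti-PD-1 libraries and from 351 to 588 in IgG libraries, and the part of stromal cell content in these values was not tested.

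Smtn, smoothelin of contractile smooth muscle, was at 2.81, 5.24, 2.27, 4.72 and 2.38 CPM in anti-PD-1 libraries, against 7.37, 9.32, 9.04, 7.37 and 7.26 CPM in IgG libraries. It did not overlap, at -1.17 ± 0.36, and the untreated libraries were at 9.65 to 12.1 CPM. Rgs5, a pericyte regulator of G protein signalling, was at 38.4, 101, 65.1, 66.1 and 42.1 CPM in anti-PD-1 libraries and at 107, 81.1, 92.6, 81.0 and 134 CPM in IgG libraries (-0.68 ± 0.23). Vtn, Myl9 and Tpm1 had -0.77 ± 0.33, -0.58 ± 0.24 and -0.32 ± 0.13. The contractile genes Acta2 and Myh11 were the 2 members with positive estimates, at 0.27 ± 0.36 and 0.64 ± 0.41.

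Among fibroblast genes, the proteoglycan Dcn was at 137, 197, 156, 158 and 143 CPM in anti-PD-1 libraries and at 350, 140, 181, 241 and 193 CPM in IgG libraries (-0.47 ± 0.17; -0.24 without IgG replicate 1). Igfbp4, a binding protein of insulin-like growth factors, had -0.53 ± 0.18 and Ogn, another small proteoglycan, -0.84 ± 0.33. Fn1, fibronectin, had -0.93 ± 0.39, and -0.28 without IgG replicate 1, with IgG replicate 1 at 48.4 CPM and the other IgG libraries at 7.46 to 14.3 CPM. Outside the stromal lists, Olfml3, a secreted matrix protein and a member of the microglia list, did not overlap (-0.75 ± 0.22). Itga8, an integrin of mesenchymal cells, had -0.90 ± 0.25, and Ctgf, a matricellular growth factor, -0.78 ± 0.27. The collagens showed less: 8 of 18 tested chains had a positive estimate, the median was -0.08, Col4a1 of basement membranes had -0.51 ± 0.21 and Col1a1 -0.55 ± 0.27, and -0.29 and -0.18 without IgG replicate 5.

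For the endothelium, Ptprb, a phosphatase of vascular junctions, was at 11.2, 23.6, 14.4, 24.8 and 12.7 CPM in anti-PD-1 libraries and at 34.8, 25.2, 25.6, 24.6 and 36.9 CPM in IgG libraries (-0.74 ± 0.23). Pecam1, an adhesion molecule of endothelial junctions, had -0.70 ± 0.28 and Flt1, a VEGF receptor, -0.62 ± 0.29. Cdh5, the defining endothelial cadherin, had -0.38 ± 0.31, and Plvap, of fenestrated capillaries, -0.30 ± 0.20, and they had -0.20 and -0.14 without anti-PD-1 replicate 5.

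**Figure D4:**
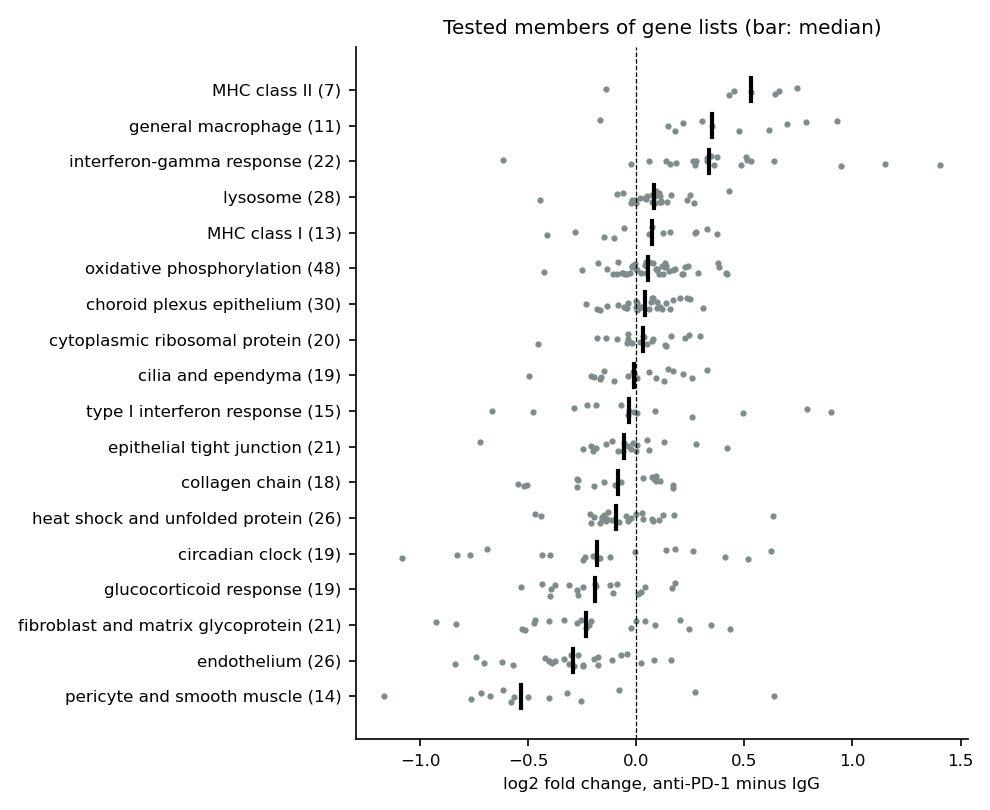
Log2 fold change (anti-PD-1 minus IgG) of each tested member of 18 gene lists, 1 point per gene, with the number of tested members in brackets and the median as a bar. MHC class II, at a median of 0.53, is at the top and pericyte and smooth muscle, at -0.53, at the bottom, with the epithelium list at 0.04.

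Circadian clock genes split by their place in the loop. The clock drives the genes Dbp, Tef, Per2, Nr1d1 and Bhlhe41 through the activators Arntl and Clock, which bind the E-box CACGTG, and Nr1d1 in turn represses Arntl and Nfil3. All 5 driven genes had negative estimates and Arntl, Nfil3 and Clock positive ones. These groups were formed after their values were seen. Of 19 tested list members 6 had a positive estimate, and the median was -0.18. At an unadjusted p under 0.05, 4 were lower (2.62% of all tested genes were). The median was -0.28 in F and -0.015 in M libraries, and -0.097 without IgG replicate 3. The E-box is shown in capitals in the promoters of Tef, at 2 annotated starts, and Bhlhe41, again from RefSeq on GRCm38.p6.
Tef, chr15:81802506-81802591, plus strand: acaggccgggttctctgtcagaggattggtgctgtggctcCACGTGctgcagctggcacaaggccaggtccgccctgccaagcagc
Tef, chr15:81811236-81811321, plus strand: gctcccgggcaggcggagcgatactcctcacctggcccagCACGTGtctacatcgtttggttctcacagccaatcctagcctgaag
Bhlhe41, chr6:145865528-145865613, minus strand: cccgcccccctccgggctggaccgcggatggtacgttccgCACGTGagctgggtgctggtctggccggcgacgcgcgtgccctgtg
Of the 19 tested members 15 had a promoter in the table. CACGTG, searched on both strands, was in 4 of them (26.7%), against 6.86% of all genes. The 4 were Tef, Bhlhe41, Per1 and Cry1. Per1 had an estimate of -0.12 and Cry1 one of 0.18. Dbp and Nr1d1 held no match in these windows, and Per2 had no annotated promoter to search.

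Tef, a transcription factor of the clock's output, was at 48.7, 32.3, 55.2, 44.3 and 53.2 CPM in anti-PD-1 libraries, against 92.7, 76.5, 114, 86.8 and 49.7 CPM in IgG libraries. IgG replicate 5 overlapped the anti-PD-1 range. The estimated log2 fold change was -0.83 ± 0.20 (adjusted p = 0.575), and it passed the threshold without a filter on low counts and without IgG replicate 5. Dbp, a related factor, was at 30.9, 45.4, 50.7, 26.6 and 24.6 CPM in anti-PD-1 libraries and at 75.8, 50.3, 147, 58.9 and 45.3 CPM in IgG libraries (-1.08 ± 0.31; -0.66 without IgG replicate 3). Dbp overlaps Sphk2, a sphingosine kinase gene with -0.59 ± 0.18, and Nr1d1 overlaps Thra, and strand-specific counting is not stated, so their reads cannot be told apart.

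Bhlhe41, a repressor of the clock, was at 30.9, 15.7, 19.7, 21.2 and 14.3 CPM in anti-PD-1 libraries and at 37.9, 28.9, 42.2, 39.3 and 25.7 CPM in IgG libraries (-0.77 ± 0.23). Per2, another repressor, had -0.69 ± 0.29, and -0.43 without IgG replicate 3, and Nr1d1, which encodes REV-ERB alpha, -0.44 ± 0.25. Arntl, which encodes BMAL1, was at 16.9, 29.7, 16.6, 37.8 and 19.1 CPM in anti-PD-1 libraries and at 14.7, 21.4, 6.02, 13.1 and 22.9 CPM in IgG libraries (0.62 ± 0.31; 0.34 without anti-PD-1 replicate 4 and 0.40 without IgG replicate 3). Nfil3 had 0.51 ± 0.34, and 0.32 without anti-PD-1 replicate 5 and 0.27 without IgG replicate 3. Clock had 0.41 ± 0.22, and 0.21 without anti-PD-1 replicate 1. In untreated libraries Dbp was at 19.3 to 89.0 CPM and Arntl at 15.2 to 42.6 CPM. The time of day of dissection is not given in the labels.

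**Figure D5:**
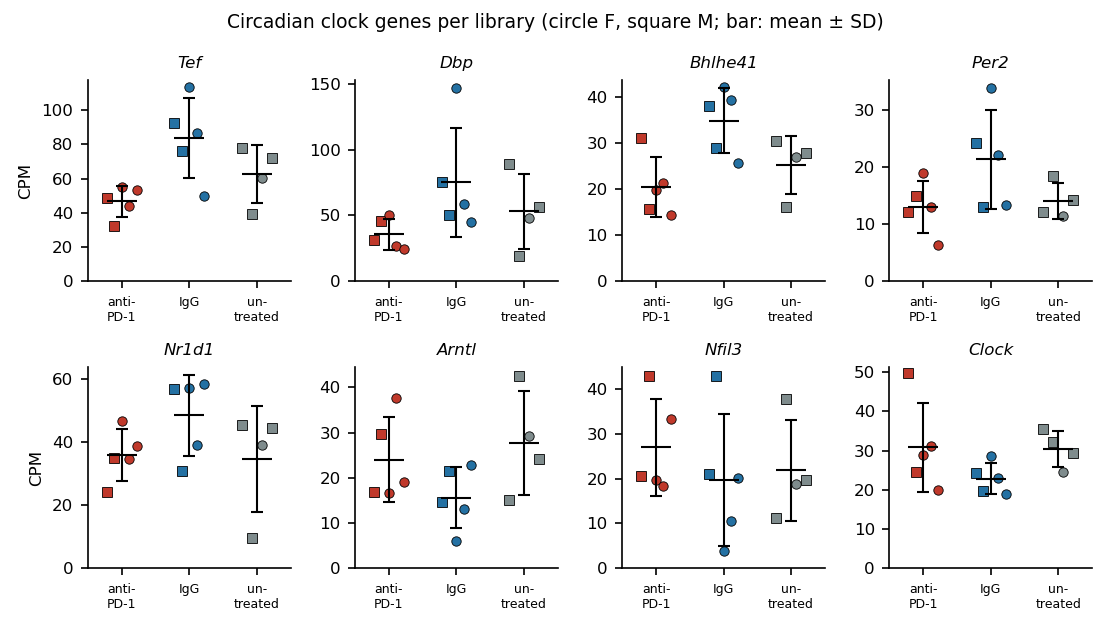
Level in CPM of 8 circadian clock genes in each anti-PD-1, IgG and untreated library, as circles for F and squares for M libraries, with the mean ± SD as bars. Tef, Dbp and Bhlhe41 sit lower in anti-PD-1 than in most IgG libraries, and IgG replicate 3 has the highest Dbp, 147 CPM, and the lowest Arntl, 6.02 CPM.

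Glucocorticoid target genes had mostly negative estimates, 14 of 19 tested members, with a median of -0.19. At an unadjusted p under 0.05, 1 of the 19 was lower (2.62% of all tested genes were). Tsc22d3, the glucocorticoid-induced leucine zipper, was at 30.9, 48.1, 40.1, 19.5 and 56.4 CPM in anti-PD-1 libraries and at 72.7, 67.1, 48.2, 36.8 and 57.5 CPM in IgG libraries (-0.53 ± 0.21). Fkbp5, a chaperone of the receptor, had -0.40 ± 0.30, Sgk1, a kinase of ion transport, -0.18 ± 0.11, and Nr3c1, the glucocorticoid receptor, -0.09 ± 0.12.

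Epithelial transcripts differed little, and their intervals were narrow. All 30 genes of the choroid plexus epithelium list were tested, 20 had a positive estimate and the median was 0.04. At an unadjusted p under 0.05, 2 were higher (2.03% of all tested genes were). Ttr had 0.07 ± 0.10, Enpp2, which makes lysophosphatidic acid, -0.06 ± 0.08, and Kl, the ageing-related protein klotho, -0.05 ± 0.09. Aqp1, the apical water channel, was at 595, 571, 681, 673 and 524 CPM in anti-PD-1 libraries and at 489, 493, 570, 476 and 560 CPM in IgG libraries, where 4 of 5 anti-PD-1 libraries exceeded every IgG library (0.23 ± 0.10). Car12, a carbonic anhydrase, had 0.25 ± 0.10, Calml4, a calmodulin-like protein, 0.31 ± 0.15 (0.18 without anti-PD-1 replicate 5), Folr1, the folate receptor, 0.14 ± 0.13 (-0.01 without it), and Igf2, insulin-like growth factor 2, 0.17 ± 0.15.

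Barrier and cilia genes were also close to 0. Of 21 tested tight junction genes 6 had a positive estimate, with a median of -0.06, and Tjp3, a junction scaffold, had -0.72 ± 0.37. Of 19 tested cilia and ependyma genes 9 were positive, with a median of -0.01, and Rfx3, a regulator of cilia genes, had -0.50 ± 0.19. For oxidative phosphorylation 32 of 48 tested genes were positive with a median of 0.06, and -0.02 without anti-PD-1 replicate 5. Ndufa4, a subunit of the respiratory chain, was higher in 4 of 5 anti-PD-1 libraries than in any IgG library (0.42 ± 0.19). Of 28 tested lysosomal genes 21 were positive, with a median of 0.08.

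Single genes at the high end included few that belong to one list. Mmab, an enzyme of vitamin B12 metabolism, was at 14.1, 9.61, 18.9, 7.67 and 11.1 CPM in anti-PD-1 libraries, against 6.32, 5.59, 7.53, 4.09 and 5.03 CPM in IgG libraries, without overlap (1.09 ± 0.35). Untreated libraries held 7.08 to 18.7 CPM, reaching as high as the anti-PD-1 libraries. H1f0, a linker histone, had 0.58 ± 0.16, Gmpr, GMP reductase, 0.65 ± 0.18, Fis1, of mitochondrial fission, 0.51 ± 0.15, Gss, glutathione synthetase, 0.48 ± 0.16, and Gsc, a homeobox factor, 1.16 ± 0.35. In each of these 5 genes 4 of 5 anti-PD-1 libraries lay above every IgG library.

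Haemoglobin transcripts were highest in anti-PD-1 replicate 5. All 8 tested erythroid genes had a positive estimate and the median was 1.00, but Hbb-bt and Hbb-b2 hold identical counts, as do Hbb-b1 and Hbb-bs. Without that library Hba-a1 and Hba-a2 no longer passed the filter on low counts, and the median of the members still tested was 0.03. Hbb-bt, a beta globin gene with near-identical copies, was at 15, 5.24, 0, 7.67 and 46.9 CPM in anti-PD-1 libraries and at 1.05, 4.66, 2.26, 3.27 and 3.91 CPM in IgG libraries. The log2 difference was 2.21 ± 0.65, and 1.02 without that library, where 3 of the other 4 anti-PD-1 libraries lay above every IgG library. Hba-a1, an alpha globin gene, had 1.35 ± 0.65.

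A few transcripts varied within groups far more than between them. Pttg1, the securin of cell division, was at 0, 0, 1.51, 56.6 and 70.7 CPM in anti-PD-1 libraries and at 41.1, 13.1, 49.0, 52.4 and 54.2 CPM in IgG libraries. Its estimate was -0.80 ± 0.51, and -1.36 without anti-PD-1 replicate 5, and it was the 1 gene called in M libraries alone, where both anti-PD-1 libraries had 0 counts. Nupr1, a stress-response gene, was at 71.5 CPM in anti-PD-1 replicate 5 and at 1.88 to 12.2 CPM in the other anti-PD-1 libraries, against 2.80 to 11.2 CPM in IgG libraries (1.29 ± 0.63; -0.49 without that library). Cox6a1, a subunit of cytochrome c oxidase, was at 1544 CPM in that library, against 640 to 827 CPM in the other anti-PD-1 libraries and 629 to 801 CPM in IgG libraries.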

How the data were processed

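Polyadenylated RNA from whole choroid plexus was measured by 3′-end sequencing, per the labels' protocols. The submitters' processing notes name Bowtie2, HOMER and build mm9; neither versions nor a strand setting were stated there. The authors deposited counts per gene (19762 genes, not normalized) and a scaled signal per transcript, whose values came out as whole reads in 100% of cases within 0.05 reads. Counts were tested with edgeR 4.0.16 in R 4.3.3 (quasi-likelihood, TMM, default filter by group, letter as covariate, 14 choroid plexus libraries, 10 residual degrees of freedom) with Benjamini-Hochberg adjustment over all tested genes. The exact permutation tests used scipy 1.17.1. Errors are SE of the log2 fold change. Alternatives included DESeq2 1.42.0.

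The 40 gene lists and the genes named were chosen with earlier results of these data known. By rule the text draws on the 15 lowest p in each direction, the 4 lowest p of each list, a fixed set, and the 5 largest changes without overlap each way. Irgm1, Irgm2, Tgtp1, Gbp3, Gbp7, Psmb8, H2-DMa, H2-DMb1, C1qa, C1qb, Lyz2, Vtn, Acta2, Myh11, Cdh5, Plvap, Nr1d1, Arntl, Nfil3, Clock, Per1, Cry1, Fkbp5, Stat3, Socs3, Folr1, Igf2, Nupr1, Hbb-b1, Hbb-bs, the untested Gbp genes and the 4 transcripts of 1 library were named after their values were seen. Same-numbered libraries of the groups share the title letter and, in most pairs, the last number of the title. No label calls them pairs, so the main fit had no pairing. They correlated at -0.03 to 0.16, and libraries of unlike number at -0.15 to 0.19, and the difference was not tested. Some genes that the rule names are not reported here.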

Additional observations from a re-analysis of the deposited data

Results flagged for a closer look

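In groups of 5 libraries, the highest or lowest library was compared with the nearest other by Dixon's ratio. Of 298 groups of genes, lists and library measures so tested 23 had a library that stood apart. The limit used passes about 1 in 20 independent groups chosen beforehand. The genes were ones named here, some after their values were seen, and they overlap with the lists. The count therefore cannot be set against that rate. Of these, 10 were in anti-PD-1 replicate 5 and 3 in IgG replicate 1.

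In anti-PD-1 replicate 5, Psmb8 was at 40.5 CPM (nearest other anti-PD-1 library 14.2), B2m at 416 (246), Bst2 at 413 (142), C1qa at 106 (39.5), Lyz2 at 50.1 (24.8), Ifngr1 at 30.2 (24.8), Folr1 at 1110 (745), Cox6a1 at 1540 (827), Hba-a1 at 35.0 (8.44) and Nupr1 at 71.5 (12.2). All were high.

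In anti-PD-1 replicate 1 the values were low. Csf1r was at 11.2 CPM (nearest 28.8) and Col4a1 at 15.9 (35.0), and the mean log2 CPM was 4.66 for leukocyte adhesion and trafficking (5.11), 4.74 for chemokines and their receptors (5.18) and 4.38 for microglia (5.14).

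Among IgG libraries, replicate 1 was high for Myh11 at 14.7 CPM (6.53), Fn1 at 48.4 (14.3) and the monocyte and neutrophil list at 5.78 mean log2 CPM (4.76). The score of that list rests on its 2 tested genes, Fn1 and Ly6c1, so it repeats part of the Fn1 value. Replicate 3 was high for Iigp1 at 8.28 CPM (3.73) and low for the neuron list at 1.64 mean log2 CPM (3.17). The neuron score is that of its 1 tested gene, Syt1, which had 2 counts in IgG replicate 3. Replicate 5 was low for Slc25a25 at 24 CPM (30.3) and high for the microglia list at 5.51 mean log2 CPM (5.26), and replicate 2 was low for the tight junction list at 5.63 mean log2 CPM (5.82).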

How the results depend on the processing

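The count of called genes, 0 in the fit as reported, was 1 with DESeq2, 31 without a filter on low counts (Igtp, H2-Ab1, Cd74, Ppap2b, Tef and Dbp among them), 2 with the replicate number as a block (Dbp among them), 1 in M libraries alone (Pttg1) and 0 to 2 when 1 library was left out, the 2, Tef among them, without IgG replicate 5. Without a filter 15105 genes were tested and the prior degrees of freedom of the spread were infinite, against 16.1, so each gene's own spread was not used. Same-numbered libraries share the title letter and, in most pairs, the last number of the title. No label says what the replicate number stands for, and these libraries correlated at -0.031 to 0.16.

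Some signs turned round, and the cause was not tested. In M libraries alone the log2 fold change was -0.057 for Gbp3, -1.05 for Psmb8, -0.39 for Irf1, -0.061 for Cd74, -0.052 for H2-Eb1, -0.40 for H2-Aa, -0.89 for C1qa, -0.56 for C1qb, -0.081 for Csf1r, -0.32 for Acta2, -0.36 for Myh11, -0.015 for Nfil3, 0.025 for Nr3c1, 0.14 for Enpp2, 0.15 for Kl and 0.24 for Plvap. In F libraries alone it was 0.093 for H2-DMb1, 0.053 for Icam1, -0.052 for Ttr, 0.048 for Stat3 and 0.0089 for Socs3, and with the replicate block 0.00018 for Socs3. With 1 library left out in turn it ran from -0.26 to 0.52 for Psmb8, -0.041 to 0.43 for Irf1, -1.16 to 0.17 for H2-DMb1, -0.37 to 0.58 for C1qa, -0.066 to 0.49 for C1qb, -0.11 to 0.37 for Ptprc, -0.14 to 0.084 for Icam1, -0.031 to 0.45 for Acta2, -0.10 to 0.0036 for Enpp2, -0.094 to 0.0058 for Kl, -0.013 to 0.20 for Folr1, -0.0071 to 0.40 for Cox6a1, -0.17 to 0.040 for Stat3, -0.18 to 0.11 for Socs3 and -0.49 to 1.62 for Nupr1. The low ends for Psmb8, C1qa, C1qb, Acta2, Folr1, Cox6a1 and Nupr1 came without anti-PD-1 replicate 5. Depth limits the tests of transcripts near the value of 3 counts, among them Ifng, Pdcd1, Cd274 and Cxcl10.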
